A study of Mus musculus with 48 samples.

Results

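The 9 genes described here encode the transcription factors that set lipid synthesis in the liver and the proteins that process them: Srebf1, Srebf2, Scap, Insig1, Insig2, Mbtps1, Mbtps2, Mlxipl and Mlx. They were chosen by name, with earlier results of these data known. They were found by the Ensembl identifier of each symbol among the 55416 genes counted in every liver. All 9 passed the filter on low counts and were tested.

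The sterol regulatory element-binding proteins (SREBPs) are made as precursors in the membrane of the endoplasmic reticulum, where SCAP holds them and INSIG1 or INSIG2 retains the complex when sterols are plentiful. When sterols are scarce, SCAP escorts the precursor to the Golgi, where the site-1 protease (Mbtps1) and the site-2 protease (Mbtps2) release the part that enters the nucleus. In the liver SREBP-1c, a product of Srebf1, drives fatty acid synthesis and is induced through LXRα, while SREBP-2, the product of Srebf2, drives cholesterol synthesis. ChREBP, the product of Mlxipl, binds DNA as a pair with MLX and answers to carbohydrate.

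Liver RNA came from mice labelled C57Bl/6J in strain that ate a western diet for 8 weeks from the age of about 8 weeks. In the knock-in study, DN:WT, DN:HET and DN:HOM male littermates were wild type, heterozygous or homozygous for Nr1h3 with the dominant negative W441R change in LXRα, made with CRISPR. In the knockout study, KO:WT, KO:HET and KO:HOM littermates were wild type, heterozygous or homozygous for an Nr1h3 knockout allele. Each of the 6 groups held 8 livers from separate mice. Both alleles were carried by every cell of the body, and the knockout line, of mixed Sv129 origin before backcrossing, was bred at another site, so study, site and colony cannot be told apart. The comparisons address whether a dominant negative LXRα changes the liver more than loss of LXRα does.

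Each liver gave between 5332897 and 16961379 reads on genes, and the shallowest were KO:HET animal 3 (5332897) and KO:HOM animal 17 (5376226). Nr1h3 itself was at 93.5 ± 8.82 counts per 1000000 reads (CPM) in KO:WT, 59.2 ± 5.63 in KO:HET and 26.98 ± 1.99 in KO:HOM (SD, n = 8 each), with no overlap between these groups. In DN:WT and DN:HOM it was at 91.7 ± 5.04 and 72.7 ± 3.56 (SD, n = 7 each), a log2 fold change of -0.32 (adjusted p = 1.47e-05 by edgeR) that became 0.11 (adjusted p = 0.13) relative to library size alone. Gene counts do not show the W441R base. The libraries labelled DN:WT animal 10 and DN:HOM animal 12 stood apart from their groups. Srebf1 was at 109 CPM in the first and at 811 in the second, against 716 to 1277 in the other DN:WT and 76.99 to 130 in the other DN:HOM livers. Neither library had a match among the study's source values for 5 genes in knock-in livers. The legend of the study's RNA-seq heatmap gives n = 8. The values below are from the 46 remaining livers, and those from all 48 are given beside many of them. By level, the library labelled DN:WT animal 10 lay within the DN:WT range for 1 of the 9 genes and within the DN:HOM range for 4, and that labelled DN:HOM animal 12 lay within the DN:HOM range for 1 and within the DN:WT range for 8. Whether these libraries or their labels were exchanged was not tested, and values from all 48 livers hold both under their labels. No liver was moved to another group.

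Levels are given as CPM scaled by the trimmed mean of M values (TMM), which sets the bulk of genes equal between livers. In DN:HOM livers the TMM factors lay between 1.21 and 1.34, above those of every other group (0.875 to 1.098). Scaled by library size alone, the median of all genes in DN:HOM against DN:WT moved from -0.01 to 0.42 on the log2 scale, and the share of called genes that were higher moved from 49.3% to 84.2%. In KO:HOM against KO:WT that median moved from -0.02 to 0.09, and that share from 59.4% to 85.7%. Differences between groups are therefore relative to the median gene. In bulk liver, fewer cells of a type and less RNA per cell cannot be told apart.

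All 9 genes had promoters in RefSeq (build GRCm38.p6), 15 in all, and each 250-base upstream sequence matched GRCm39, the build of the counts, at 1 place. The 5 shown belong to both SREBP genes, of which Srebf1 alone was called in DN:HOM livers, and to 3 genes that fell with Srebf1. Capitals mark matches, on either strand, to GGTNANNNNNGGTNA (a direct repeat of the kind LXR binds), TCACNCCAC (a sterol regulatory element), CACGTG (an E-box) and CCAAT (the box that NF-Y binds). No matches overlapped. Each line runs 5′ to 3′ on the strand of the gene and ends 1 base before the start site.
Srebf1, innermost start, chr11:60101298-60101547, minus strand: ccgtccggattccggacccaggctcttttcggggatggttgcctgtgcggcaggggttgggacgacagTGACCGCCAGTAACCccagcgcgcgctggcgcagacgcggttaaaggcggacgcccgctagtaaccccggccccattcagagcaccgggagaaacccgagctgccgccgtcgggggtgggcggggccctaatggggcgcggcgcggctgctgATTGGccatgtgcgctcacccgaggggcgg
Srebf2, chr15:82031220-82031469, plus strand: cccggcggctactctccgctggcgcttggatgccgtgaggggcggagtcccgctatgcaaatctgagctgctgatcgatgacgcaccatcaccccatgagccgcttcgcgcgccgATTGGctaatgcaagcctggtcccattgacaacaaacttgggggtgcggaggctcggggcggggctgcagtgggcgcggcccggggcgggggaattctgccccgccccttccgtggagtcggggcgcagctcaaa
Insig1, chr5:28276160-28276409, plus strand: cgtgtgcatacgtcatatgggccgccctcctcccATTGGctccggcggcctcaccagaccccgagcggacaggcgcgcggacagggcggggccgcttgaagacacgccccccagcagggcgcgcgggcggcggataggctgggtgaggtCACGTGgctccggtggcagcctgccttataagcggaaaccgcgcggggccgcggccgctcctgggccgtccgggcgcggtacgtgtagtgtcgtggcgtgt
Mlxipl, outer start, chr5:135118494-135118743, plus strand: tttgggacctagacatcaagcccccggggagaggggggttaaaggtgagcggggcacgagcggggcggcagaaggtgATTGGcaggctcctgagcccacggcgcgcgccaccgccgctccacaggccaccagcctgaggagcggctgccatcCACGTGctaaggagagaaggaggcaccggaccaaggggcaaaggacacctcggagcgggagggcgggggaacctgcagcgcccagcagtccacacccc
Mlx, chr11:100977866-100978115, plus strand: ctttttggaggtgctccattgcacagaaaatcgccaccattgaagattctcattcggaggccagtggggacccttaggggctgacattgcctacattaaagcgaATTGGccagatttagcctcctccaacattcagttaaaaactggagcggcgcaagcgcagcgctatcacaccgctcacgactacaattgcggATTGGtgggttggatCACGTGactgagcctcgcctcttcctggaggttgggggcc

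The direct repeat stood in 1 of the 15 promoters, at the innermost of the 3 Srebf1 starts, 182 to 168 bases before it and, read on the strand opposite the gene, as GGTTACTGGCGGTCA. This start lies 12110 bases into the gene, and transcripts of SREBP-1c begin downstream of those of SREBP-1a. The letters occurred in 204 of 32851 promoters (0.621%). The E-box stood in 4 of the 15, at Insig1, Mlx, the inner Scap start and the outer Mlxipl start, against 6.02% of all promoters. The sterol element stood in 1, at the inner Mlxipl start, 17001 bases into the gene, and in 1.05% of all promoters. CCAAT stood in 7 of the 15 and in 33.9% of all. These are matches of letters, and binding was not measured.

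In livers homozygous for the dominant negative allele, Srebf1, Insig1, Mlxipl, Insig2, Scap and Mlx fell, and the fall was largest among the 9 in Srebf1, at 9.05-fold. Srebf2 was not called, Mbtps1 was slightly lower and Mbtps2 slightly higher. In all, 7 of the 9 genes were called lower and 1 higher, by the quasi-likelihood test of edgeR at an adjusted p of 0.05 (Benjamini-Hochberg). Of 15711 genes tested, 59.1% were called in this comparison and 30% were called lower. In 6 of the 9 genes DN:HOM and DN:WT did not overlap, against 33.5% of all genes. In the fit of 48 livers 7 of the 9 were called, against 48% of all genes, and all 7 were lower. Scaled by library size alone, all 9 were called, with 6 lower and 3 higher, against 70.1% of all genes called, 11.1% lower and 59.1% higher.

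**Figure D1:**
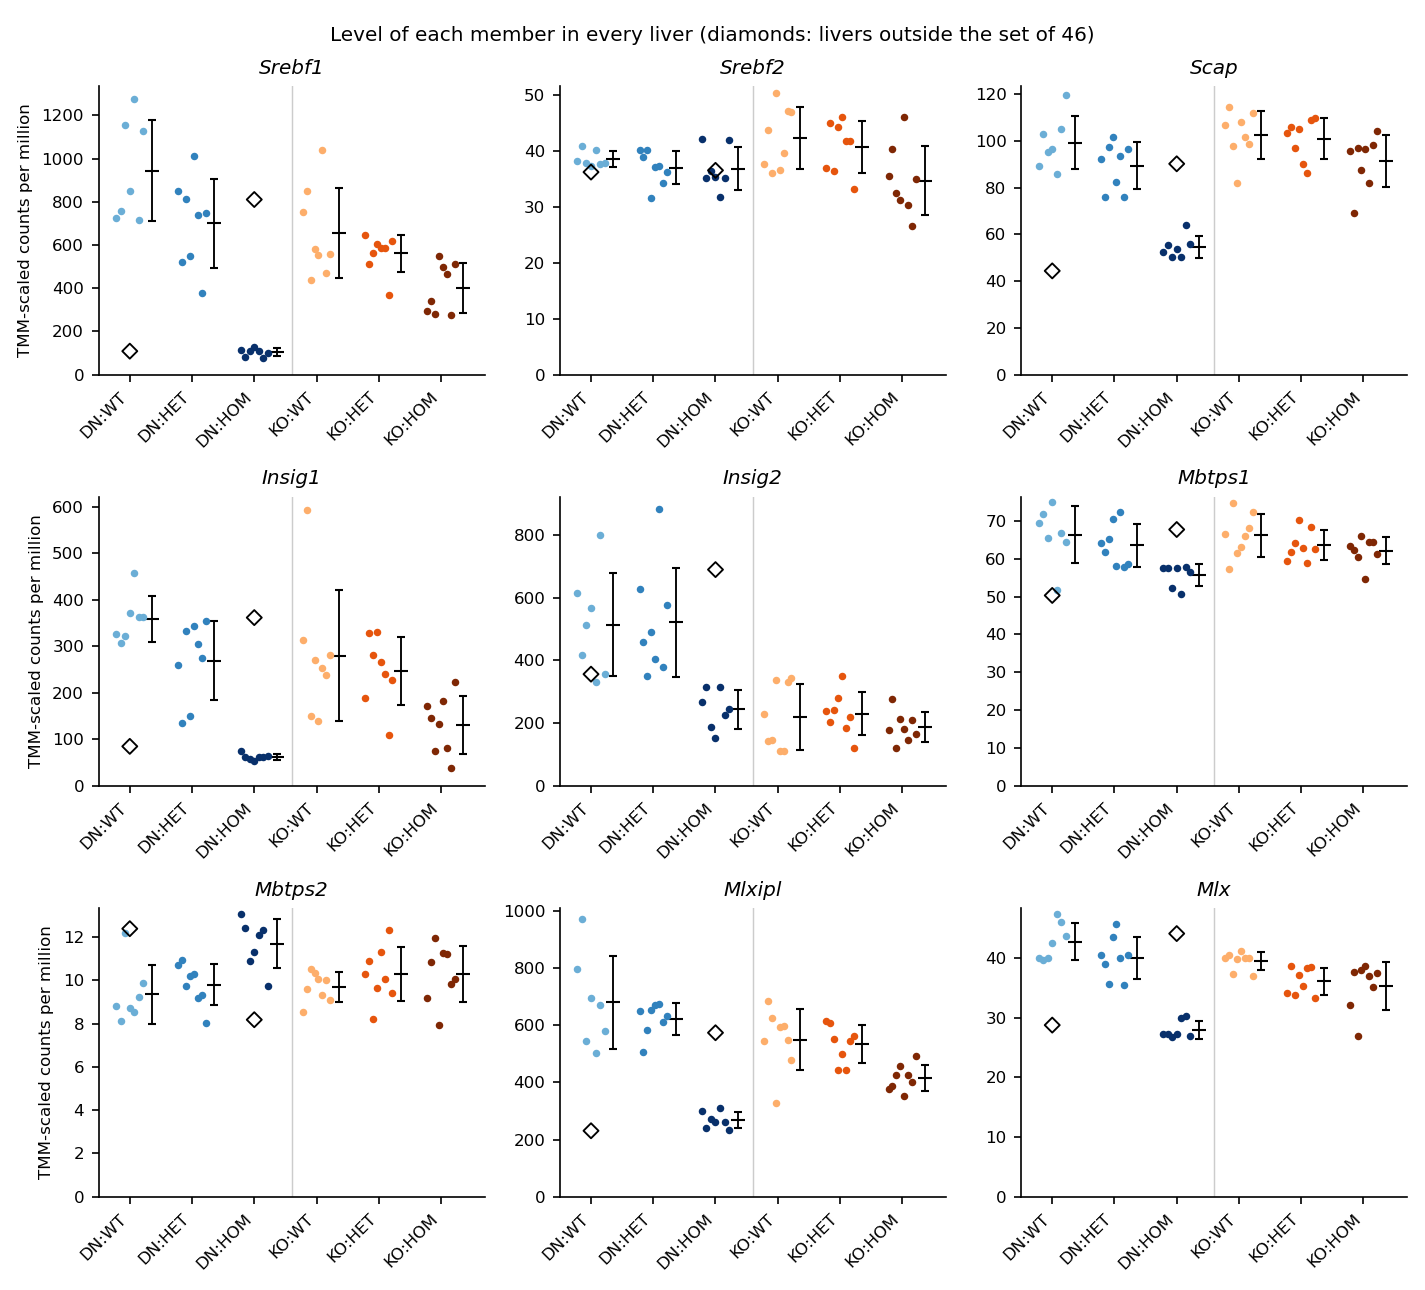
Level of each of the 9 genes in every liver, in TMM-scaled CPM (y axis), by group (x axis), with points for livers of the set of 46, bars for their mean ± SD (n = 7 in DN:WT and DN:HOM, 8 elsewhere), and open diamonds for the libraries labelled DN:WT animal 10 and DN:HOM animal 12. Srebf1 in DN:HOM lies between 76.99 and 130, below every other group of the set, whereas Srebf2 overlaps between all groups.

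Srebf1 (ENSMUSG00000020538, chr11:60089913-60113407, minus strand) lay between 716 and 1277 CPM in DN:WT (median 852), between 378 and 1014 in DN:HET (median 744) and between 76.99 and 130 in DN:HOM (median 108). The DN:HOM livers were below every liver of the other groups, with an SD of 17.98% of their mean. The log2 fold change from DN:WT was -3.18 (SE 0.21, adjusted p = 1.31e-16 by edgeR's quasi-likelihood test). All 48 livers gave -2.13 (SE 0.37, adjusted p = 3.76e-05 by edgeR). Gene counts do not separate the transcripts of SREBP-1a and SREBP-1c.

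Srebf2 (ENSMUSG00000022463, chr15:82031382-82093201, plus strand), the sterol-answering gene of the pair, lay between 37.3 and 40.9 CPM in DN:WT (median 37.9) and between 31.9 and 42.1 in DN:HOM (median 35.3). The groups overlapped, and the log2 fold change was -0.05 (95% interval -0.23 to 0.12, adjusted p = 0.627 by edgeR). All 48 livers gave -0.06 (adjusted p = 0.595 by edgeR). Relative to library size alone it was 0.38 (adjusted p = 0.000226 by edgeR), where the median gene stood at 0.42. The microRNA gene Mir33 lies within Srebf2 outside its exons, and it had 0 reads in every liver. The libraries were made from mRNA, so this count does not measure the mature microRNA.

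Scap (ENSMUSG00000032485, chr9:110158229-110214024, plus strand), the escort, lay between 85.7 and 120 CPM in DN:WT (median 96.6) and between 50.2 and 63.9 in DN:HOM (median 53.8). The groups did not overlap. Its log2 fold change was -0.85 (SE 0.08, adjusted p = 1.15e-11 by edgeR), and -0.65 with all 48 livers (SE 0.12, adjusted p = 6.21e-05). Relative to library size alone Scap was at -0.42 (adjusted p = 3.56e-06 by edgeR).

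Insig1 (ENSMUSG00000045294, chr5:28276315-28283668, plus strand), a retention protein whose gene is itself an SREBP target, lay between 307 and 458 CPM in DN:WT (median 362) and between 52.7 and 73.9 in DN:HOM (median 62.5). Again no liver of either group reached the other. The log2 fold change was -2.51 (SE 0.29, adjusted p = 4.32e-10 by edgeR), and -1.70 with all 48 livers (SE 0.36, adjusted p = 0.00026). Insig2 (ENSMUSG00000003721, chr1:121181760-121260400, minus strand), the other retention protein, lay between 332 and 799 in DN:WT (median 514) and between 151 and 316 in DN:HOM (median 244). The highest DN:HOM liver was just below the lowest DN:WT liver. Insig2 had a log2 fold change of -1.06 (SE 0.25, adjusted p = 0.000324 by edgeR), and -0.72 with all 48 livers (SE 0.26, adjusted p = 0.0204). On the scale of library size alone it was at -0.63 (adjusted p = 0.0206 by edgeR), and the groups overlapped.

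Under TMM scaling the changes of the proteases were the smallest after that of Srebf2. Mbtps1 (ENSMUSG00000031835, chr8:120234415-120285605, minus strand) lay between 51.7 and 75.1 CPM in DN:WT (median 66.7) and between 50.7 and 57.8 in DN:HOM (median 57.5), and the groups overlapped. The log2 fold change was -0.24 (SE 0.06, adjusted p = 0.00152 by edgeR), but 0.19 (SE 0.07, adjusted p = 0.0128) relative to library size alone, so its direction rested on the scaling. Mbtps2 (ENSMUSG00000046873, chrX:156318367-156381711, minus strand) lay between 8.13 and 12.2 in DN:WT (median 8.82) and between 9.74 and 13.1 in DN:HOM (median 12.1), again with overlap. It was the only one of the 9 genes called higher under TMM scaling, by 0.34 on the log2 scale (SE 0.09, adjusted p = 0.00147 by edgeR). In 48 livers the value was 0.21 (SE 0.09, adjusted p = 0.0609 by edgeR), which missed the threshold. Relative to library size alone Mbtps2 was at 0.77 (SE 0.09, adjusted p = 1.44e-09 by edgeR), a larger change than those of Scap and Mlx. On that scale its livers ran from 7.89 to 11.2 CPM in DN:WT and from 12.9 to 17.5 in DN:HOM, without overlap.

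Both partners of the carbohydrate-answering pair fell. Mlxipl (ENSMUSG00000005373, chr5:135118744-135168615, plus strand) lay between 501 and 973 CPM in DN:WT (median 671) and between 232 and 311 in DN:HOM (median 263). Mlxipl had a log2 fold change of -1.33 (SE 0.12, adjusted p = 1.2e-12 by edgeR), and -1.03 with all 48 livers (SE 0.17, adjusted p = 2.87e-05). Mlx (ENSMUSG00000017801, chr11:100978080-100983043, plus strand) lay between 39.6 and 47.3 in DN:WT (median 42.4) and between 26.8 and 30.3 in DN:HOM (median 27.2). Neither gene overlapped between these groups. The log2 fold change of Mlx was -0.60 (SE 0.06, adjusted p = 2.41e-11 by edgeR), and -0.45 with all 48 livers (SE 0.08, adjusted p = 6.45e-05). Relative to library size alone Mlx was at -0.17 (adjusted p = 0.0147 by edgeR).

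**Figure D2:**
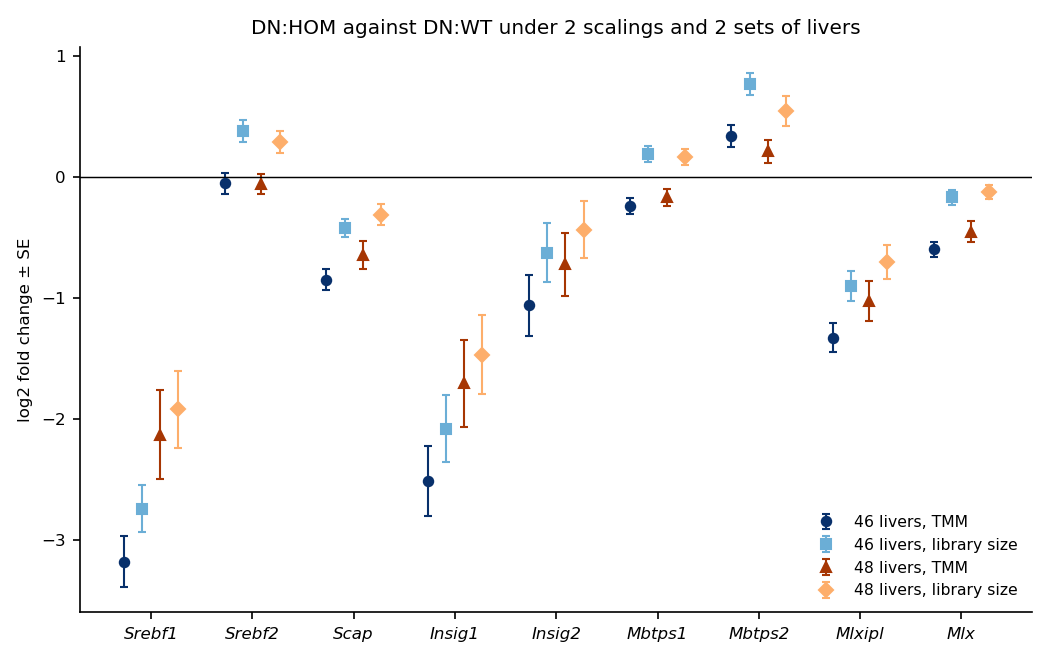
log2 fold change ± SE (y axis) of each gene (x axis) in DN:HOM against DN:WT with 46 or 48 livers, each scaled by TMM or by library size alone. Srebf1, Insig1 and Mlxipl lie below 0 in all 4 fits, whereas Srebf2 and Mbtps1 are at -0.05 and -0.24 by TMM and at 0.38 and 0.19 by library size with 46 livers.

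A single copy of the dominant negative allele gave 0 calls among the 9 genes in edgeR, against 2.30% of all genes in DN:HET against DN:WT. DESeq2 called 0 as well, and 1 gene had an unadjusted p under 0.05 in each tool. That gene was Srebf1, at -0.43 on the log2 scale (95% interval -0.81 to -0.06, adjusted p = 0.261 by edgeR). Insig1 was at -0.42 (95% interval -0.94 to 0.11, adjusted p = 0.523 by edgeR). Its DN:HET livers ran from 134 to 354 CPM, with an SD of 31.6% of their mean. In DN:HOM against DN:HET livers 8 of the 9 genes were called, against 53.9% of all genes, and Srebf1 was at -2.74 (SE 0.20, adjusted p = 3.71e-15 by edgeR). With all 48 livers Srebf1 was at -1.87 in this comparison (SE 0.37, adjusted p = 7.58e-05 by edgeR).

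Loss of LXRα came with falls in 5 of the 9 genes. In KO:HOM against KO:WT Insig1, Srebf1, Mlxipl, Srebf2 and Mlx were called, all lower, when 19.4% of all genes were called and 7.87% were called lower. The groups overlapped in all 9 genes, and 2.55% of all genes did not overlap. With all 48 livers 2 of the 9 were called, Insig1 and Srebf2, against 12.9% of all genes. With library size alone 2 were called as well, against 19.5% of all genes. The 16 knockout livers compared are the same in the fits of 46 and 48 livers, and both fits share the estimate of spread with the knock-in livers.

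Insig1 lay between 139 and 593 CPM in KO:WT (median 262) and between 37.2 and 223 in KO:HOM (median 138). It had the widest relative spread of the 9 in KO:WT, an SD of 50.2% of its mean. Its log2 fold change was -1.10 (SE 0.26, adjusted p = 0.00147 by edgeR), and it was called under each of the 13 settings tried. Srebf1 lay between 437 and 1039 in KO:WT (median 571) and between 277 and 550 in KO:HOM (median 405). The groups overlapped, with a log2 fold change of -0.71 (SE 0.18, adjusted p = 0.0035 by edgeR). In 48 livers the change was -0.70 (SE 0.36, adjusted p = 0.199 by edgeR).

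Srebf2, which was not called in DN:HOM livers, lay between 36.1 and 50.4 CPM in KO:WT (median 41.7) and between 26.6 and 46.1 in KO:HOM (median 33.7). Its log2 fold change was -0.29 (SE 0.08, adjusted p = 0.00959 by edgeR), and relative to library size alone -0.17 (adjusted p = 0.15). It also missed the threshold with each study fitted alone (adjusted p = 0.0501 by edgeR) and with the compared groups alone (adjusted p = 0.0694). Mlxipl lay between 328 and 683 in KO:WT (median 571) and between 353 and 492 in KO:HOM (median 413), so the highest livers were in KO:WT but the lowest was too. Its log2 fold change was -0.41 (SE 0.11, adjusted p = 0.00584 by edgeR), and it was not called with all 48 livers (adjusted p = 0.1) or relative to library size alone (-0.30, adjusted p = 0.0549).

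Mlx was at 39.5 ± 1.49 CPM in KO:WT and 35.4 ± 3.996 in KO:HOM (SD, n = 8 each). The log2 fold change of -0.16 (SE 0.06, adjusted p = 0.0389 by edgeR) was called under 1 of the 13 settings, the one reported here. The other 4 genes were not called. Scap was at -0.17 (95% interval -0.33 to -0.02, adjusted p = 0.11 by edgeR) and Insig2 at -0.24 (-0.71 to 0.23, adjusted p = 0.521). Mbtps1 was at -0.10 (95% interval -0.22 to 0.02, adjusted p = 0.274 by edgeR) and Mbtps2 at 0.08 (-0.10 to 0.25, adjusted p = 0.589).

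Heterozygous knockout livers had 0 of the 9 genes called by edgeR, against 0.0191% of all genes. DESeq2 called 0 too, and each tool had 1 gene with an unadjusted p under 0.05. It was Mlx, at -0.14 on the log2 scale (95% interval -0.25 to -0.02, adjusted p = 0.709 by edgeR). In KO:HOM against KO:HET 2 of the 9 genes were called, against 10.6% of all genes. They were Insig1, at -0.91 (SE 0.26, adjusted p = 0.0159 by edgeR), and Mlxipl, at -0.36 (SE 0.11, adjusted p = 0.0269). Neither was called with all 48 livers or without the 2 shallowest livers.

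The effects of the homozygous genotypes were then compared directly, as the knock-in change minus the knockout change. The fall was larger in the knock-in livers for 5 of the 9 genes, when 34.7% of all genes differed in either direction. Srebf1 differed by -2.47 on the log2 scale (SE 0.27, adjusted p = 1.05e-09 by edgeR). Insig1 differed by -1.41 (SE 0.37, adjusted p = 0.00261 by edgeR) and Mlxipl by -0.91 (SE 0.16, adjusted p = 2.08e-05). Scap differed by -0.67 (SE 0.11, adjusted p = 9.16e-06 by edgeR) and Mlx by -0.44 (SE 0.08, adjusted p = 5.36e-05). DESeq2 called the same 5 genes.

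The difference for Insig2 was -0.82 (95% interval -1.51 to -0.14, adjusted p = 0.0551 by edgeR) and that for Srebf2 was 0.24 (-0.01 to 0.48, adjusted p = 0.124). With all 48 livers 0 of the 9 differences were called by edgeR, against 10.5% of all genes, and 4 had an unadjusted p under 0.05. Srebf1 was then at -1.43 (SE 0.50, adjusted p = 0.057 by edgeR), so under TMM scaling these calls rested on leaving out the libraries labelled DN:WT animal 10 and DN:HOM animal 12. With all 48 livers and library size alone 2 of the 9 were called, against 16.1% of all genes.

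**Figure D3:**
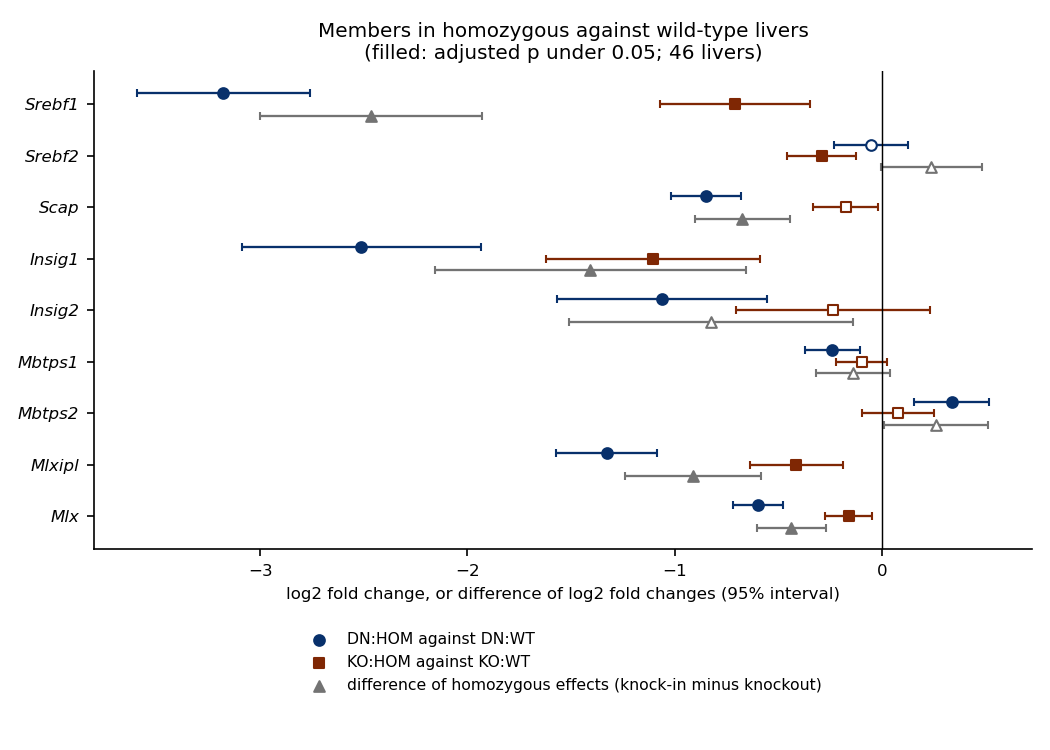
log2 fold change (x axis) of each gene in DN:HOM against DN:WT (circles) and KO:HOM against KO:WT (squares), and their difference (triangles), with 95% intervals, in 46 livers, filled where the adjusted p was under 0.05. The Srebf1 change is -3.18 in the knock-in and -0.71 in the knockout livers, while Srebf2 is at -0.05 and -0.29.

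The wild-type livers of the studies differed in 1 of the 9 genes, against 12% of all genes. Insig2 was at 514 ± 164 CPM in DN:WT (SD, n = 7) and 219 ± 105 in KO:WT (SD, n = 8), a log2 difference of -1.23 (SE 0.24, adjusted p = 0.000425 by edgeR). It was -1.18 with all 48 livers (adjusted p = 0.00184 by edgeR). The mean Insig2 level of DN:HOM livers, 244 ± 61.8 (SD, n = 7), lay within the range of KO:WT livers, 110 to 343. Srebf1 was at -0.52 (SE 0.18, adjusted p = 0.0573 by edgeR) between the wild types.

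Between genes, levels were compared as transcripts per 1000000 (TPM), which divide by transcript length and are not TMM-scaled. In DN:WT livers Srebf1 was at 432 ± 103.6, Mlxipl at 372 ± 91.8, Insig2 at 367 ± 117 and Insig1 at 260 ± 32.3 TPM (SD, n = 7). Neighbours in this order overlapped, but the ranges of Srebf1 and Insig1 did not. Scap at 46.6 ± 6.49 and Mlx at 45.9 ± 3.11 TPM overlapped too, and Mbtps1 at 27.5 ± 3.66, Srebf2 at 15.1 ± 0.501 and Mbtps2 at 7.21 ± 1.08 followed without overlap. In DN:HOM livers Insig2 came first, at 237 ± 65.01 TPM, then Mlxipl at 199 ± 23.6, with overlap. Srebf1 at 64.4 ± 12.1 and Insig1 at 61.4 ± 8.41 TPM came next and overlapped each other (SD, n = 7).

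Ratios of a pair within a liver do not depend on the scaling of the library. Counts per base of transcript gave a Srebf1 to Srebf2 ratio between 21.7 and 37.2 in DN:WT (median 26.7), between 12.9 and 31.9 in DN:HET (median 23.5) and between 2.57 and 4.33 in DN:HOM (median 3.17). The DN:HOM livers lay apart from all others of the set. In the knockout study the ratio was 18.5 ± 6.56 in KO:WT, 16.4 ± 3.72 in KO:HET and 13.8 ± 4.21 in KO:HOM (SD, n = 8 each), with overlap. With all 8 livers the mean ratio in DN:HOM was 6.14, the library labelled DN:HOM animal 12 being at 25.98, and that labelled DN:WT animal 10 was at 3.52.

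Insig1 to Insig2 lay between 0.462 and 1.40 in DN:WT (median 0.666), between 0.299 and 0.969 in DN:HET (median 0.523) and between 0.202 and 0.355 in DN:HOM (median 0.281). The lowest DN:WT liver was above the highest DN:HOM liver. In the knockout study it lay between 0.731 and 4.20 in KO:WT (median 1.17) and between 0.181 and 1.37 in KO:HOM (median 0.630), with overlap. Mlxipl to Mlx was 8.19 ± 2.39 in DN:WT and 4.88 ± 0.474 in DN:HOM (SD, n = 7 each), and 7.07 ± 1.37 in KO:WT and 6.03 ± 1.002 in KO:HOM (SD, n = 8 each). These ratios are given as a description, without a test.

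**Figure D4:**
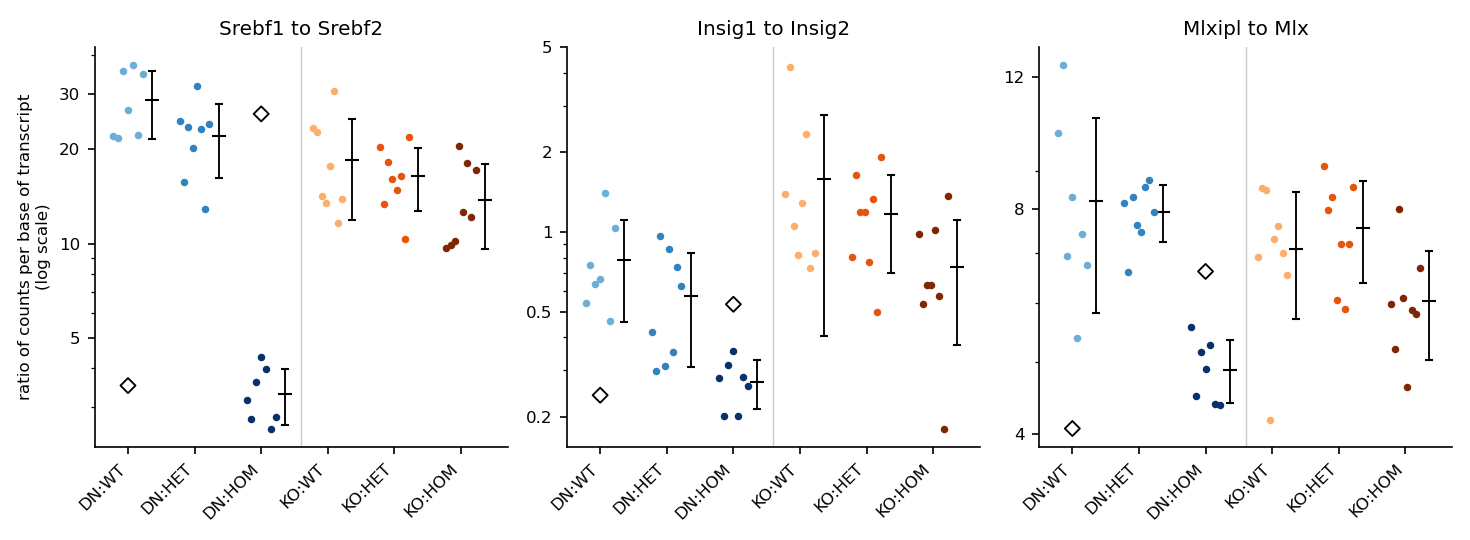
Ratio of counts per base of transcript of 3 gene pairs within each liver (y axis, log scale), by group (x axis), with points for livers of the set of 46, bars for their mean ± SD, and open diamonds for the libraries labelled DN:WT animal 10 and DN:HOM animal 12. Srebf1 to Srebf2 is between 2.57 and 4.33 in DN:HOM and between 9.66 and 37.2 in all other livers of the set.

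Genes on which these regulators act, or which act on them, were taken from lists written by hand. Of 23 SREBP-2 and sterol target genes, 21 were called lower and 0 higher in DN:HOM against DN:WT (median log2 fold change -1.35), where Srebf2 itself was not called. In KO:HOM against KO:WT 21 were called lower and 0 higher (median -0.87). Of all genes tested 30% and 7.87% were called lower in these comparisons. Fdps, Mvd and Tm7sf2, enzymes of sterol synthesis, were at -2.48 (SE 0.32), -2.03 (SE 0.32) and -2.002 (SE 0.16) in the knock-in comparison and at -2.12 (SE 0.32), -1.24 (SE 0.30) and -1.31 (SE 0.15) in the knockout comparison, on the log2 scale. Stard4, a sterol carrier, was at -1.71 (SE 0.19) and -1.15 (SE 0.17). Fdps was also the only gene of the 5 lists called in DN:HET against DN:WT, where 2.30% of all genes were called. It was at -1.15 (SE 0.29, adjusted p = 0.0259 by edgeR), and with all 48 livers it was not called (adjusted p = 0.331). Fdps levels were low, at 3.98 ± 1.26 CPM in DN:WT (SD, n = 7) and 1.80 ± 0.63 in DN:HET (SD, n = 8). They were at 0.70 ± 0.20 CPM in DN:HOM (SD, n = 7) and 0.67 ± 0.36 in KO:HOM (SD, n = 8). Sqle, squalene epoxidase, was at -0.11 (adjusted p = 0.86 by edgeR) and -1.17 (adjusted p = 0.049), and it was named after its values were seen. Over 48 livers 21 and 17 of the 23 were called, all lower, against 48% and 12.9% of all genes called.

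Of 16 SREBP-1c and fatty acid synthesis target genes, all 16 were called lower in both homozygous comparisons, with medians of -2.59 and -1.21, against 30% and 7.87% of all genes called lower. The study's introduction names FASN and SCD1, beside SREBP-1c, among the factors induced when LXRα is activated. The part of each regulator in these falls was not tested. Scd1, stearoyl-CoA desaturase, fell from 39337 ± 8611 to 758 ± 243 CPM in the knock-in study (SD, n = 7 each), and from 24666 ± 17050 to 9240 ± 7227 in the knockout study (SD, n = 8 each). With all 8 livers of each knock-in group Scd1 was at 34571 ± 15661 CPM in DN:WT and 5959 ± 14714 in DN:HOM (SD). Fasn, fatty acid synthase, was at -4.95 (SE 0.50) and -1.58 (SE 0.40) on the log2 scale, and Thrsp, which promotes lipogenesis, at -5.67 (SE 0.45) and -1.29 (SE 0.35). Pnpla5, of the patatin-like lipase family, had 0 reads in all 7 DN:HOM livers and was at 5.42 ± 3.70 CPM in DN:WT (SD, n = 7), so it was at least 36.7-fold lower with a floor of 3 reads per library. The knock-in fall was larger in 12 of the 16 genes by the test of the difference, which called 34.7% of all genes. Over 48 livers 16 and 9 of the 16 were called, all lower, against 48% and 12.9% of all genes. In those livers 0 of the 16 differences were called by edgeR, against 10.5% of all genes. With all 48 livers Pnpla5 was still called in KO:HOM against KO:WT (adjusted p = 0.00962 by edgeR). Scd1, Thrsp and Fasn were not called there (adjusted p = 0.193, 0.19 and 0.0966 by edgeR). In DN:HOM against DN:WT Scd1 was then at -2.54 (SE 0.73), Thrsp at -3.17 (SE 0.68) and Fasn at -2.68 (SE 0.67) on the log2 scale.

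Of 13 ChREBP and carbohydrate response target genes, 9 were called lower and 0 higher in DN:HOM livers (median -0.95), and 3 lower in KO:HOM livers (median -0.29). Over all genes tested 30% were called lower and 29.1% higher in DN:HOM livers. In the knockout comparison 19.4% were called and 7.87% were called lower. Pklr, liver pyruvate kinase, was at -1.81 (SE 0.22) and -0.70 (SE 0.20) on the log2 scale. Khk, an enzyme of fructose use, was at -1.48 (SE 0.16) in the knock-in comparison, and at -0.27 (adjusted p = 0.188 by edgeR) in the knockout comparison. Slc2a4, the insulin-answering glucose transporter, was at -4.52 (SE 0.56) and -4.64 (SE 0.57), from 4.36 ± 2.28 CPM in DN:WT (SD, n = 7) and 4.27 ± 3.29 in KO:WT (SD, n = 8). In DN:HOM it was at 0.18 ± 0.17 CPM (SD, n = 7). With all 8 livers of each group it was at 3.84 ± 2.58 in DN:WT and 0.58 ± 1.13 in DN:HOM (SD). Txnip and Arrdc4, known ChREBP targets, were at 0.14 (adjusted p = 0.624 by edgeR) and 0.29 (adjusted p = 0.134) in DN:HOM livers, and were named after their values were seen. Over 48 livers 8 and 2 of the 13 were called, all lower, against 48% and 12.9% of all genes.

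Of 20 factors that turn over SREBPs or carry them to the Golgi, 13 were called lower and 4 higher in DN:HOM livers (median -0.43), and 2 lower in KO:HOM livers (median -0.09). In DN:HOM livers 59.1% of all genes were called, and in KO:HOM livers 19.4% were called and 7.87% were called lower. Paqr3, a Golgi anchor of SCAP and SREBP, was at -1.51 (SE 0.17) on the log2 scale in DN:HOM livers, and Sar1b, a GTPase of the vesicles that leave the endoplasmic reticulum, at -1.01 (SE 0.10). Rnf145, an E3 ligase of SCAP, was at -0.87 (SE 0.21), and Spring1, a licensing factor of the site-1 protease, at -0.82 (SE 0.12). These 4 were at -0.20, -0.14, -0.28 and 0.03 in KO:HOM livers and were not called there. Relative to library size alone 8 of the 20 were called higher and 4 lower in DN:HOM livers, against 59.1% and 11.1% of all genes, so the direction of this list rested on the scaling. With all 48 livers 15 and 0 of the 20 were called by edgeR, against 48% and 12.9% of all genes, and 2 of the 20 had an unadjusted p under 0.05 in KO:HOM livers.

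Of 9 other genes of the MLX and MAX network, 4 were called higher and 2 lower in DN:HOM livers (median 0.23), and 2 lower in KO:HOM livers (median 0.05). The shares called in either direction were near those of all genes, 59.1% and 19.4%. Mlxip, a paralog of ChREBP, was at 0.59 (SE 0.18) on the log2 scale in DN:HOM livers, Myc at 1.66 (SE 0.57), Mxd1 at 0.73 (SE 0.18) and Mnt at 0.43 (SE 0.19). Mxi1 and Mxd4, the 2 called lower in both comparisons, were at -0.38 and -0.28 in DN:HOM livers, and were named after their values were seen. Neither was called in KO:HOM livers with all 48 livers or with library size alone. Relative to library size alone 7 of the 9 were called higher and 0 lower in DN:HOM livers, against 59.1% of all genes higher. Myc had an adjusted p = 0.0115 by edgeR, and with all 48 livers an adjusted p = 0.0618.

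**Figure D5:**
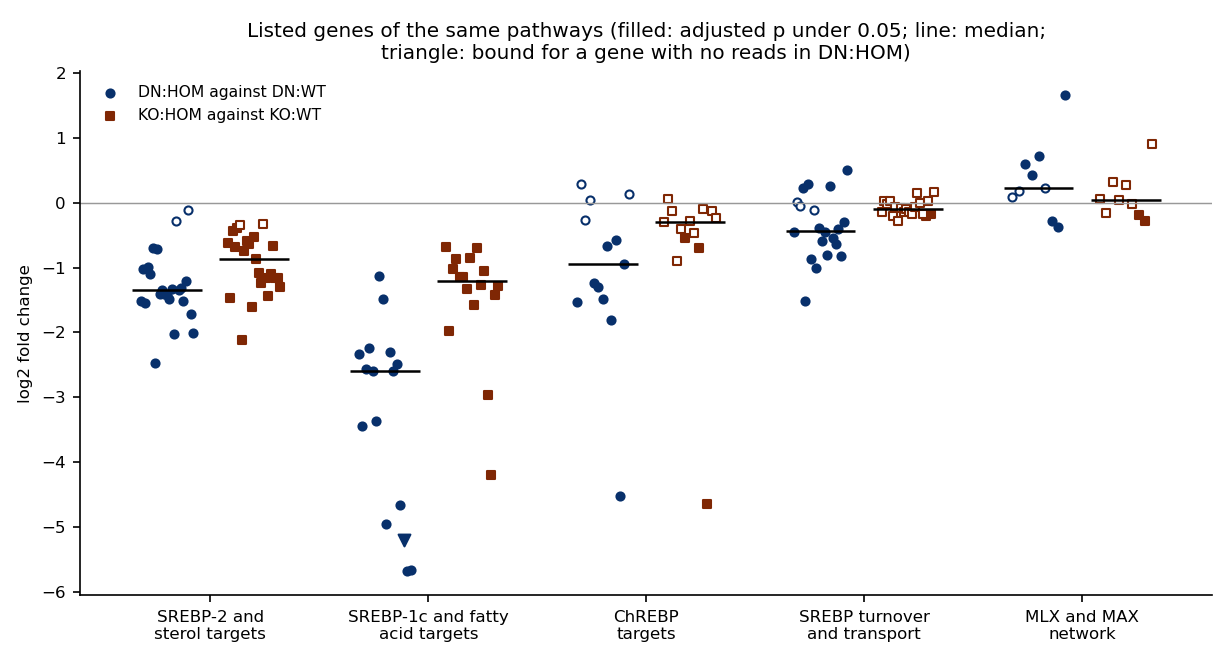
log2 fold change (y axis) of every gene of the 5 lists in DN:HOM against DN:WT (circles) and KO:HOM against KO:WT (squares), in 46 livers, filled where the adjusted p was under 0.05, with lines at the medians and a triangle at the bound for Pnpla5. The 16 fatty acid synthesis targets lie below 0 in both comparisons, with medians of -2.59 and -1.21, while the MLX and MAX network has medians of 0.23 and 0.05.

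Deviations from the group mean showed which of the 9 genes varied together between livers of a group, over 46 livers and as a description. The highest correlations were between Srebf1 and Insig1, with Pearson's r of 0.51 (0.43 in the 22 knock-in and 0.57 in the 24 knockout livers), and between Srebf2 and Insig1, with r of 0.50 (0.27 and 0.56). Srebf1 and Srebf2 had r of 0.12, and Mlxipl and Mlx had r of -0.05. The lowest was between Srebf2 and Mlxipl, at -0.36 (-0.10 and -0.50). The genes share libraries and their scaling, so these values are not independent of them.

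Over the same 46 livers, the 3 genes outside the set with the most similar log2 CPM were named for each of the 9, among 11703 genes. For Srebf1 they were Gm12265, Fabp2 and Gramd2b, with Pearson's r between 0.93 and 0.94, but between 0.45 and 0.52 for deviations from the group means. For Srebf2 they were Fads1, Idi1 and Cyp51, with r between 0.73 and 0.77, and between 0.70 and 0.78 for deviations. For Scap they were Serpina1d, Slc10a1 and Acadsb, and for Insig1 Pcyt2, H2-Q10 and Lss. For Insig2 they were Lrrc59, Dennd2b and Lrp5, with r between 0.89 and 0.91 and, for deviations, between 0.77 and 0.83. For Mbtps1 they were H6pd, Sec16a and Srpra, and for Mbtps2 Eps15, Frk and Tpp1, whose r of between 0.61 and 0.64 was the lowest of the 9 (between 0.44 and 0.45 for deviations). For Mlxipl they were Entpd8, Aspdh and Mup3, and for Mlx Paqr9, Mup-ps12 and Gm12265, with r between 0.85 and 0.87 and, for deviations, between 0.31 and 0.54.

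Markers of other liver cells moved with the homozygous genotypes. All 7 macrophage markers were called higher in DN:HOM and 6 of 7 in KO:HOM livers, against 29.1% and 11.5% of all genes. Their summed level lay between 72.2 and 140 CPM in DN:WT, 823 and 1309 in DN:HOM, 48.7 and 153 in KO:WT, and 204 and 921 in KO:HOM. In DN:HOM livers 6 of 7 stellate cell, 4 of 4 cholangiocyte and 3 of 4 neutrophil markers were called higher, while 3 of 5 endothelial and 2 of 3 erythroid markers were called lower. The summed erythroid markers lay between 350 and 415 CPM in DN:WT and 92.5 and 414 in DN:HOM. In KO:HOM livers 4 of 4 T cell markers were called higher, with sums between 4.85 and 20.3 CPM against 1.86 and 4.43 in KO:WT. Of 8 hepatocyte markers 7 were called lower in both comparisons, against 30% and 7.87% of all genes, with summed levels between 67778 and 87091 in DN:WT, 31288 and 43548 in DN:HOM, 80195 and 104503 in KO:WT and 58474 and 81874 in KO:HOM. In the library labelled DN:WT animal 10 the summed hepatocyte and macrophage markers were at 41576 and 1332, and in that labelled DN:HOM animal 12 at 88192 and 81.1. No marker of any list was at 0 in every liver. The part of these markers in the changes of the 9 genes was not tested.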

How the data were processed

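Liver mRNA of 48 mice was sequenced as stranded libraries. The authors aligned reads to GRCm39 with STAR 2.5.0a and deposited raw read counts per gene for each liver, unnormalised, on both strands together and on each strand. Counts of the sense strand, whose total was 6.97 to 8.62 times that of the other strand, were used. Between 24.0% and 35.0% of counted reads named no gene and were left out. Groups came from the sample labels. Knock-in livers of the set of 46 were found by matching the counts with the study's source data for 5 genes, and 22 livers matched. Knockout livers were not matched, and all were kept. No value was taken from the source data. The 9 genes, the lists and the rule for named genes (the 4 largest called changes of each list in DN:HOM and the 3 most alike genes) were chosen with earlier results of these data known. A gene that this rule names is not reported here.

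Differences were tested with edgeR 4.0.16 (R 4.3.3) by its quasi-likelihood test on 6 group means, after its filter on low counts and TMM scaling, with Benjamini-Hochberg adjustment over all genes tested at 0.05. The script was tested on simulated data. SEs are the log2 fold change over the root of F. Alternatives were all 48 livers, DESeq2 1.42.0, other scalings and filters, unstranded counts, each study or the compared groups alone, leaving out the 2 shallowest livers, and a threshold of 0.01. TPM used the length of the canonical transcript. Each liver is a separate mouse, and intervals on levels cover the spread between mice. Opposite-strand genes overlap exons of Srebf1, Srebf2, Scap, Mlxipl and Mlx, and stranded counting keeps them apart. On the same strand Yy2 overlaps exons of Mbtps2, and Mir6922 those of Srebf1, which stranded counting cannot keep apart. Both were counted at 0 reads in every liver.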

Additional observations from a re-analysis of the deposited data

Results flagged for a closer look

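Among groups of 7 or 8 livers, 20 levels or ratios, 19.2% of those looked at, had a liver apart from the rest by Dixon's criterion, which chance alone meets in about 1 in 20 groups. The library labelled DN:HOM animal 12 was the highest of its 8 livers for Srebf1 (811 CPM), Scap (90.1), Insig1 (361), Insig2 (690), Mbtps1 (67.7), Mlxipl (574) and Mlx (44.1). Its ratios of Srebf1 to Srebf2 and Insig1 to Insig2, 25.98 and 0.534, were also the highest of the group. The library labelled DN:WT animal 10 was the lowest of its 8 for Scap (44.4), Insig1 (84.5) and Mlx (28.8), and for the ratio of Srebf1 to Srebf2 (3.52). The 7 levels of the library labelled DN:HOM animal 12 lay within the ranges of the other DN:WT livers, and whether the libraries or their labels were exchanged was not tested.

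Within the set of 46, Srebf1 was lowest in KO:HET animal 15 (370 CPM), Scap highest in DN:HOM animal 33 (63.9) and Mbtps2 highest in DN:WT animal 7 (12.2). Insig1 was highest in DN:WT animal 17 (458) and in KO:WT animal 5 (593), whose Insig1 to Insig2 ratio was 4.20. The ratio of Mlxipl to Mlx was lowest in KO:WT animal 23 (4.19).

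The homozygous effects differed between the studies, as knock-in minus knockout on the log2 scale, by -2.47 for Srebf1, -1.41 for Insig1, -0.91 for Mlxipl, -0.67 for Scap and -0.44 for Mlx, and by 1.48 for Nr1h3, which the knockout allele lowers.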

How the results depend on the processing

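Of 828 alternative values for single genes, 749 kept direction and side of the threshold, 46 fell below it, 10 passed it and 23 changed sign, and 193 of 231 counts stayed within 1.5 times. The sign changes were in values near 0 or followed the scaling. In DN:HOM against DN:WT, Srebf2 was at 0.032 with upper-quartile scaling, 0.38 with library size alone and 0.28 with all 48 livers and library size alone (a joint setting chosen after seeing the data). Under the last 2 settings Mbtps1 was at 0.19 and 0.17, and Nr1h3 at 0.11 and 0.0776. Under the same 2 settings Mbtps1 was at 0.0186 and 0.0185 in KO:HOM against KO:WT, at 0.17 and 0.15 in the difference of effects, and at -0.0501 and -0.0505 in KO:WT against DN:WT, where Nr1h3 was at -0.0167 and -0.0217. There Mbtps1 was also at -0.0229 (upper quartile), -0.0063 (no filter), -0.0065 (mean CPM of at least 1) and -0.0039 (unstranded), and Mbtps2 at -0.0085 with 48 livers and -0.12 with the joint setting. In DN:HET against DN:WT the joint setting gave -0.0034 for Mbtps2 and 0.0242 for Mlxipl.

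Of the 9 genes, 5 were called in KO:HOM against KO:WT, but 2 with all 48 livers, 2 with library size alone, 3 with each study alone, 3 with the compared groups alone and 1 with the joint setting, where 12.9%, 19.5%, 16.9%, 16.6% and 12.5% of all genes were called. In KO:HOM against KO:HET 2 became 1 with library size alone, each study alone or the compared groups alone, and 0 with 48 livers, without shallow livers, at 0.01 or with the joint setting. In KO:WT against DN:WT 1 became 2 with DESeq2, upper quartile or a mean CPM of at least 1, and 3 with library size alone. The 5 called differences of effects became 0 with 48 livers and 2 with the joint setting. In KO:HOM the 16 called fatty acid targets became 9 with 48 livers and 8 with the joint setting. In DN:HOM the 17 called turnover and transport factors became 10 with the joint setting. In KO:HOM the 2 called became 1 with upper quartile, library size alone, each study alone or the compared groups alone, and 0 with 48 livers, no filter, 0.01 or the joint setting. The 2 called genes of the MLX and MAX network in KO:HOM became 1 with upper quartile, a mean CPM of at least 1 or unstranded counts, and 0 with 48 livers, library size alone, no filter, the compared groups alone, 0.01 or the joint setting. The cause of these changes was not tested. No paired analysis was possible because the replicate numbers only name livers and pair none across groups.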
